A study of Homo sapiens with 6 samples.

Results

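The 9 genes described here are read-outs and ligands of the bone morphogenetic protein (BMP) branch of the TGFβ superfamily: the inhibitor of DNA binding genes ID1, ID2, ID3 and ID4, the ligand genes BMP2, BMP4 and BMP6, the hepcidin gene HAMP, and ATOH8. They were chosen by gene name, but with earlier results of these data known, and are 9 of the 57773 genes in the deposited table. RNA was sequenced from HepG2, a human liver cancer line that keeps many hepatocyte functions. The 3 TGFβ cultures received recombinant human TGFB1 at 5 ng/mL for 3 h, and the 3 vehicle cultures received the same volume of carrier for the same time. The labels name no genetic change in either group, and by the study's methods both were moved from medium with serum to serum-free medium for the treatment. The question addressed was whether targets of the BMP-responsive SMADs move within 3 h of TGFβ. All cultures come from 1 tumor-derived line, and P-values therefore measure only the spread between these cultures.

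BMPs bind pairs of type I and type II serine/threonine kinase receptors, which phosphorylate SMAD1, SMAD5 and SMAD9. These enter the nucleus with SMAD4 and act on target genes, of which the ID genes are the most widely used read-out. TGFβ acts mainly through SMAD2 and SMAD3, although in some cells it also reaches the BMP-responsive SMADs. In liver, BMP6 and BMP2 from endothelial cells signal to hepatocytes, where the BMP-responsive SMADs drive HAMP, and the hepcidin peptide then limits iron export into blood. ID proteins bind E proteins and keep them off DNA. ATOH8 is a basic helix-loop-helix factor known as a BMP target in hepatocytes.

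Promoter windows are shown for the 3 genes of the set whose level changed with TGFβ, and for ID1, the usual BMP read-out, whose change was not called. Each is the 250 bases before a transcription start site, taken from RefSeq on GRCh38.p14 and written 5′ to 3′ on the plus strand, which is the coding strand of all 4 genes. Capitals mark 2 short motifs searched on both strands: GGCGCC, the core of BMP-responsive SMAD elements, and GTCTG (or its complement, CAGAC), the core bound by SMAD3 and SMAD4. The motifs can share an end base, which did not occur in these windows.
HAMP, chr19:35282278-35282527: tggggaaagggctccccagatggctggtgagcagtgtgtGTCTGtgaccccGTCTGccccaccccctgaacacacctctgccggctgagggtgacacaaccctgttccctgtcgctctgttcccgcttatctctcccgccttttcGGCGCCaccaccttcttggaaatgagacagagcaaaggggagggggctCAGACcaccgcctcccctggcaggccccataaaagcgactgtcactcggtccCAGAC
ATOH8, chr2:85753741-85753990: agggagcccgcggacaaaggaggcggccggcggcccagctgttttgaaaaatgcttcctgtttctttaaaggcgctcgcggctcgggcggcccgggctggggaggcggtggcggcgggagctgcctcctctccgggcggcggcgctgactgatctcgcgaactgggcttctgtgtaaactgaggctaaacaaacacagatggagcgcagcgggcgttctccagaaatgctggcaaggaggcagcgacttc
BMP6, chr6:7725849-7726098: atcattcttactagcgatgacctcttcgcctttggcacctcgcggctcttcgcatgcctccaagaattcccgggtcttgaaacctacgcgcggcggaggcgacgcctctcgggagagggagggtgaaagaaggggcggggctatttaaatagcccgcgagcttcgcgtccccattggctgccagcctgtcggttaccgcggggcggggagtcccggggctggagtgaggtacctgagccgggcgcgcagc
ID1, chr20:31605039-31605288: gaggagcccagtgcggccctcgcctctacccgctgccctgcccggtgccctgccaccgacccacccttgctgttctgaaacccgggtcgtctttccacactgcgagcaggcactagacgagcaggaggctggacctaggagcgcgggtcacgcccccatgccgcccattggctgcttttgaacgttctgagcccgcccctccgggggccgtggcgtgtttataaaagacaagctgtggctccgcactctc
The HAMP window held 1 GGCGCC, at bases -105 to -100 from the start site, and 4 copies of GTCTG or CAGAC, which began at -211, -199, -57 and -5. The windows of ATOH8, BMP6 and ID1 held neither motif, which says only that these letters are not in these bases. Over all 35116 RefSeq windows of the same length, 16.4% held GGCGCC and 38.0% held GTCTG or CAGAC. Of the 10 windows listed for the set, 2 held GGCGCC and 5 held GTCTG or CAGAC. BMP4 accounts for 3 of these windows, and BMP2 had no entry.

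Reads counted on genes numbered 60815385 to 88415362 per vehicle culture and 73263662 to 100099136 per TGFβ culture. Counts were scaled to CPM, reads per 1e+06 of a library's effective size. That size is the library's reads on the tested genes times its TMM factor from edgeR. A total of 22747 genes had enough reads to be tested with edgeR's quasi-likelihood test. FDR below is its Benjamini-Hochberg adjusted P over these genes, and a gene was called at an FDR under 0.05. As a check of the labels, the known TGFβ targets PMEPA1, JUNB and SKIL rose 19.8-, 12.7- and 5.45-fold, each with no overlap between the groups (highest FDR 4.41e-05). Same-numbered vehicle and TGFβ cultures deviated together, so the value of a fit with the culture number as a block is given where it changes a call.

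HAMP, ATOH8 and BMP6 rose with TGFβ, by 3.10-, 3.48- and 3.54-fold, while ID1, ID2 and ID3 did not pass the test in either direction. For ID4 (higher with TGFβ) and BMP4 (lower) the groups did not overlap, but neither was called without the block in edgeR's quasi-likelihood test with the filter. ID4 was also called with no filter on low counts (FDR 0.0161), by DESeq2 (FDR 0.0116) and by edgeR's exact test (FDR 0.0189), and BMP4 with no filter (FDR 0.0475). BMP2 had too few reads to be tested. Of the 8 genes tested, 3 were called higher (37.5%, against 3.11% of all tested genes) and 0 were called lower (against 1.01%). With the block, 4 were called higher and 1 lower, against 8.08% and 3.75% of all tested genes. The groups did not overlap for 4 genes with the higher levels under TGFβ and for 1 gene with the lower, against 10.4% and 8.23% of all tested genes. BMP6 is counted in these shares, although it reached the filter's cutoff in only 2 of 3 vehicle cultures, against all 3 TGFβ cultures. With 10 reads required in every library BMP6 was not tested. In that fit 2 genes of the set were called higher, beside 731 of all 20503 tested genes.

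**Figure D1:**
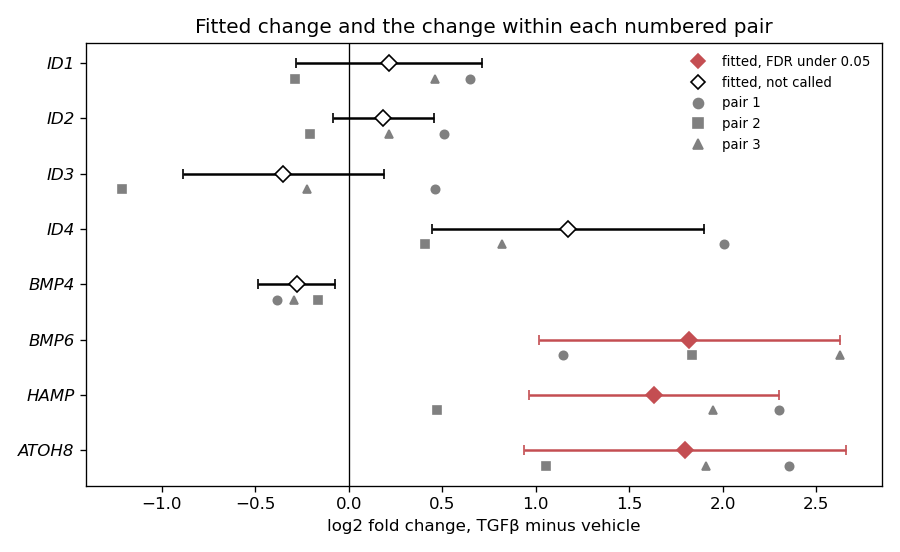
Log2 fold change, TGFβ minus vehicle, of the 8 tested genes. Diamonds are fitted values with 95% intervals from edgeR's quasi-likelihood fit, filled where the FDR was under 0.05, and gray symbols are the log2 ratios within each numbered pair. The intervals of HAMP, ATOH8 and BMP6 lie wholly above 0, those of ID1, ID2 and ID3 span 0, and pair 2 has the smallest ratio for 6 of the 8 genes.

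HAMP (ENSG00000105697, hg19 chr19:35771619-35776046, plus strand) encodes hepcidin, the peptide hormone that lowers iron export. Its level was 2.73, 4.62 and 3.80 CPM in vehicle cultures 1, 2 and 3, from 241, 383 and 234 reads. It was 13.5, 6.40 and 14.7 CPM in the TGFβ cultures, from 1307, 515 and 1068 reads. The groups were apart, with TGFβ culture 2 the nearest to the vehicle range. The mean went from 3.72 ± 0.949 to 11.5 ± 4.47 CPM (SD, n = 3), a log2 fold change of 1.63 (standard error 0.30, 95% interval 0.96 to 2.30, FDR 0.0130). Within the numbered pairs the log2 ratio was 2.31, 0.47 and 1.95, positive in 3 of 3 pairs. Leaving out vehicle culture 1, 2 or 3 or TGFβ culture 1 raised the FDR to 0.0564, 0.0611, 0.101 and 0.0705, with the log2 fold change between 1.41 and 1.91 over all 6 such fits. Over the other alternatives of processing the FDR ran from 1.35e-05 to 0.256, the highest with no filter on low counts.

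ATOH8 (ENSG00000168874, hg19 chr2:85978467-86015189, plus strand) was read 94, 107 and 35 times with vehicle, and 528, 216 and 156 times with TGFβ. The corresponding levels were 1.07, 1.29 and 0.568 CPM, and 5.45, 2.68 and 2.14 CPM. The groups did not overlap, and TGFβ culture 1 was the highest by a wide margin. From 0.975 ± 0.370 to 3.42 ± 1.77 CPM (SD, n = 3), the log2 fold change was 1.80 (standard error 0.38, 95% interval 0.94 to 2.66, FDR 0.0291), and the pairs gave 2.36, 1.06 and 1.91. The FDR was 0.0871, 0.0866 and 0.131 without vehicle culture 1, 2 or 3, and 0.0556 and 0.0808 without TGFβ culture 1 or 2. Over the other alternatives it ran from 1.97e-05 to 0.192, with 0.192 for no filter on low counts and 0.0517 for limma-voom.

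Among the ID genes, whose products bind and sequester E proteins, ID1, ID2 and ID3 had ample reads. ID1 (ENSG00000125968, hg19 chr20:30193086-30194318, plus strand) was at 32.1, 68.4 and 47.5 CPM in the vehicle cultures and at 50.4, 56.0 and 65.3 CPM in the TGFβ cultures. The vehicle cultures alone spanned the whole TGFβ range, vehicle culture 2 being the highest of the 6. The mean was 49.3 ± 18.2 and 57.3 ± 7.55 CPM (SD, n = 3), the log2 fold change 0.21 (standard error 0.22, FDR 0.791), and the exact permutation P 0.5 (two-sided). The 95% interval of the fold ran from 0.822 to 1.64, so a doubling of ID1 lay outside it. Pairs 1 and 3 gave log2 ratios of 0.65 and 0.46 and pair 2 gave -0.29. Without vehicle culture 1 the fitted log2 fold change was -0.029, and without vehicle culture 2 it was 0.52 (edgeR, FDR 0.282). Without both cultures numbered 2 it was 0.56 (edgeR, FDR 0.483). The interval above is that of the fit to all 6 cultures.

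ID2 (ENSG00000115738, hg19 chr2:8818975-8824583, plus strand) was at 68.8, 79.7 and 77.0 CPM with vehicle and at 97.7, 69.1 and 89.4 CPM with TGFβ. TGFβ cultures 1 and 3 were above all vehicle cultures, and TGFβ culture 2 was at the level of the lowest. The log2 fold change was 0.18 (standard error 0.12, 95% interval of the fold 0.942 to 1.37, FDR 0.618). The table also lists AC011747.7, an overlapping gene with 28 to 66 reads.

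ID3 (ENSG00000117318, hg19 chr1:23884409-23886285, minus strand) was at 10.6, 20.8 and 14.0 CPM with vehicle and at 14.6, 8.97 and 12.0 CPM with TGFβ. The groups overlapped. The log2 fold change was -0.35 (standard error 0.24, 95% interval of the fold 0.541 to 1.14, FDR 0.640), and it was 0.13 when both cultures numbered 2 were left out. Pair 1 gave a log2 ratio of 0.46, pair 2 of -1.21 and pair 3 of -0.22.

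ID4 (ENSG00000172201, hg19 chr6:19837617-19840915, plus strand) was by far the least abundant of the 4 ID genes per length. Its reads numbered 57, 73 and 44 with vehicle against 252, 94 and 92 with TGFβ, or 0.646, 0.881 and 0.715 CPM against 2.60, 1.17 and 1.26 CPM. All 3 TGFβ cultures were above all vehicle cultures, with TGFβ culture 1 far above the rest. The log2 fold change was 1.17 (standard error 0.32, 95% interval 0.45 to 1.90) with an FDR of 0.0899, which missed the threshold, and 1.11 with an FDR of 0.0376 in the fit with the block. Without TGFβ culture 1 the fold change fell to the lowest of the fits that leave out 1 culture, a log2 value of 0.69. An overlapping gene, RP1-167F1.2, had at most 9 reads in any library.

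**Figure D2:**
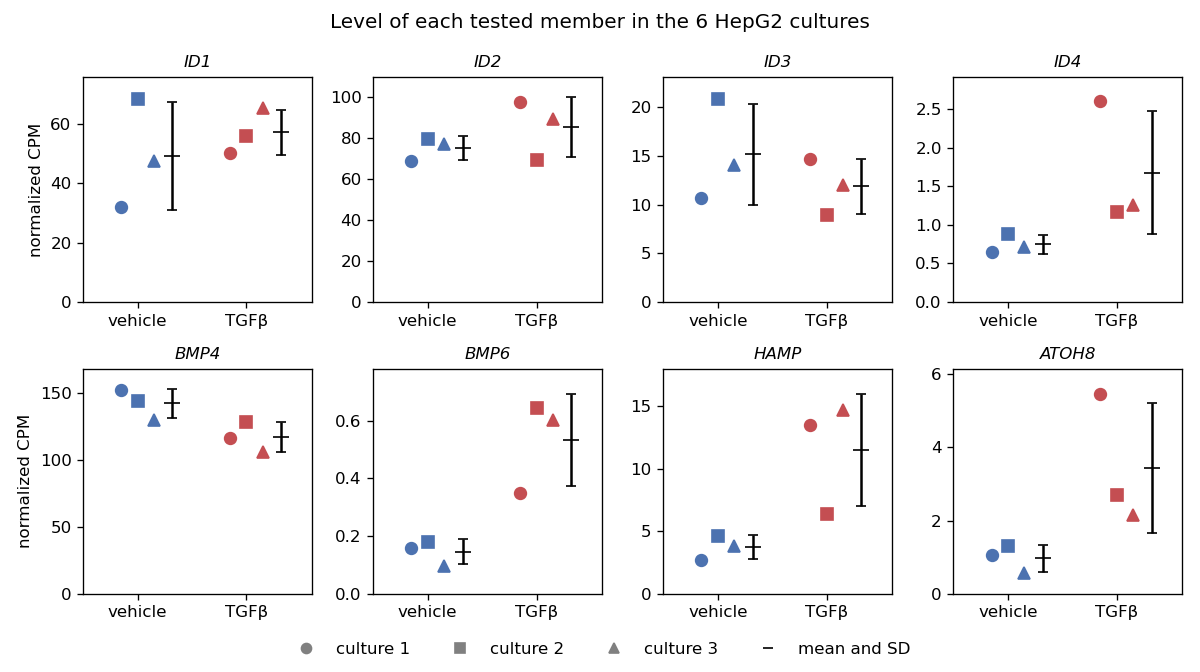
Level in normalized CPM (linear axis from 0) of the 8 tested genes in each of the 6 cultures. Symbols give the culture number, blue is vehicle and red TGFβ, and black bars are the mean and SD of 3 cultures. The groups are separate for ID4, BMP6, HAMP and ATOH8 (TGFβ higher) and for BMP4 (TGFβ lower), and overlap for ID1, ID2 and ID3.

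The ligand genes went different ways. BMP6 (ENSG00000153162, hg19 chr6:7727030-7881655, plus strand), the ligand best known for driving hepcidin, was near the detection limit, with 14, 15 and 6 reads under vehicle against 34, 52 and 44 under TGFβ. In CPM these were 0.159, 0.181 and 0.0974 against 0.351, 0.646 and 0.604. All TGFβ cultures were above all vehicle cultures. The log2 fold change was 1.82 (standard error 0.36, 95% interval 1.02 to 2.63, FDR 0.0196), and the pairs gave 1.15, 1.84 and 2.63. The filter's cutoff of 0.124 CPM was reached in 2 of the 3 vehicle cultures and in all TGFβ cultures. The FDR was 0.0654, 0.0598 and 0.0929 without vehicle culture 1, 2 or 3 and 0.0899 without TGFβ culture 2, and over the other alternatives it ran from 0.000112 to 0.211. The last 173 bases of BMP6 are shared with TXNDC5, which lies on the other strand, had 45078 to 79473 reads per library and had a log2 fold change of 0.13 (FDR 0.489). How many of the BMP6 reads fell in those bases was not tested.

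BMP4 (ENSG00000125378, hg19 chr14:54416454-54425479, minus strand) was the ligand gene with the highest level. It was at 152, 144 and 130 CPM with vehicle and at 117, 129 and 106 CPM with TGFβ, the highest TGFβ culture lying just under the lowest vehicle culture. The mean was 142 ± 11.2 and 117 ± 11.2 CPM (SD, n = 3). The log2 fold change was -0.28 (standard error 0.091, 95% interval -0.48 to -0.075) with an FDR of 0.163, and -0.28 with an FDR of 0.00539 in the fit with the block, the 3 pairs giving -0.38, -0.16 and -0.29. For the genes whose groups did not overlap, BMP4 included, the exact permutation P was 0.1, the smallest that 3 against 3 unpaired cultures can give. This permutation, for ID1 as well, ran over all cultures and did not use the pairing.

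BMP2 (ENSG00000125845, hg19 chr20:6748311-6760927, plus strand) was all but absent from the libraries, with 2 reads in every vehicle library and 4, 0 and 2 reads under TGFβ. With 6 reads in each group, the ratio of TGFβ to vehicle scaled for depth was 0.930, with an exact binomial 95% interval of 0.249 to 3.48 that covers counting error only. A change of BMP2 smaller than these bounds was not detectable at this depth.

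Levels of different genes were compared in the deposited RPKM, which divides reads by gene length and library size. In vehicle cultures the median order was BMP4 (39.7), ID1 (31.4), ID2 (28.5), ID3 (6.36), HAMP (1.03), ID4 (0.249), ATOH8 (0.143), BMP6 (0.0466) and BMP2 (0.00569). BMP4 overlapped ID1 and ID1 overlapped ID2, and all other neighbors were separate in every culture. With TGFβ, ID1 (37.7), ID2 (31.4) and BMP4 (30.7) overlapped at the top, HAMP (3.64) stayed below ID3 (5.17), and ID4 (0.417) and ATOH8 (0.367) overlapped. This order holds for the deposited lengths only. To see how far it depends on them, the deposited values were rescaled to the length of the canonical GENCODE transcript. Reads were not recounted in its exons, so the rescaled values are not levels of that transcript. For ID4 the canonical transcript (3873 bases) is longer than the deposited length (2344 bases), which by itself lowers the rescaled value. Per length of the canonical GENCODE transcript, the vehicle median of ID2 (48.4 RPKM) was above that of ID1 (39.4 RPKM) and that of ATOH8 (0.154 RPKM) just above that of ID4 (0.151 RPKM), with overlapping ranges in both cases. With TGFβ, ID2 (53.3 RPKM) came first, BMP4 (49.0 RPKM) was above ID1 (47.3 RPKM), and ATOH8 (0.394 RPKM) was above ID4 (0.252 RPKM). The level of HAMP depended most on the length used. Its deposited length of 3010 bases is 7.41 times the 406 bases of its canonical transcript, and per canonical length its TGFβ median was 27.0 RPKM, above that of ID3 (9.79 RPKM).

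The cultures numbered 2 differed from the others in these genes, a pattern looked at after the values had been seen. Vehicle culture 2 had the highest vehicle level for 7 of the 8 genes (87.5%), BMP4 being the exception, against 31.1% of all tested genes. On the list of other BMP pathway, iron and E protein genes described below, vehicle culture 2 was highest for 12 of 47 tested genes (25.5%). The smallest difference within a pair, TGFβ minus vehicle, was that of pair 2 for 6 of the 8 genes (75%), against 28.01% of all genes with a ratio in every pair. BMP4 and BMP6 were the 2 exceptions. Both counts use the level of vehicle culture 2, so they are not separate observations. Both cultures 1 shared a lane and both cultures 2 shared another, while cultures 3 were on separate lanes. With both cultures 2 left out, HAMP was still called (log2 fold change 2.13, FDR 0.00646), and BMP6 (1.86, FDR 0.211) and ATOH8 (2.21, FDR 0.124) were not. In that fit ID1 (0.56), ID2 (0.37) and ID3 (0.13) all had positive log2 fold changes, and none of them was called.

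Marker genes of other liver cells were examined because BMP2 and BMP6 are endothelial products in liver. Of 5 endothelial markers with a value, KDR was at 0 reads in all 6 libraries and the summed level was 0.0357 to 0.0506 RPKM with vehicle and 0.0343 to 0.0542 RPKM with TGFβ. Of 6 fibroblast and stellate cell markers, COL1A1 (FDR 0.193, and 0.00806 with the block) and PDGFRB (FDR 0.0582, and 7.25e-06 with the block) carried nearly all of a sum that was 1.33 to 1.58 RPKM with vehicle and 2.21 to 3.70 RPKM with TGFβ. DCN, LUM, COL1A2 and COL3A1 had at most 14 reads in any library. The 6 blood and macrophage markers summed to 508 to 686 RPKM and 447 to 459 RPKM, almost all from LYZ (FDR 0.106, and 0.0157 with the block), while PTPRC had at most 1 read and HBB had 0. The part of these sums in the changes above was not tested. Hepatocyte markers were high in every library, ALB at 3405 to 4171 RPKM and HNF4A at 49.4 to 55.9 RPKM, and of the 8 such markers none was called (edgeR, FDR 0.722 to 0.977), though with the block FGB and TTR were called lower (FDR 0.0331 and 0.0495).

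The rest of the BMP pathway was read from a list of 74 other genes, chosen with earlier results of these data known. The list, called the pathway list here, also holds 12 genes of hepcidin regulation and iron transport (11 tested) and 3 E protein genes (2 tested). The shares below are those of the whole list. Of the 74 genes, 47 were tested. Of these, 15 were higher with TGFβ (31.9%, against 3.11% of all tested genes) and 2 lower (4.26%, against 1.01%). The median log2 fold change was 0.26, against -0.0054 over all tested genes. With the block 22 were higher and 2 lower, against 8.08% and 3.75% of all tested genes. Several, such as SMAD7, are also known direct TGFβ targets, so the list does not separate the BMP arm from the TGFβ arm.

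Other BMP and growth differentiation factor ligands were not called (0 of 3 tested). GDF7 had the most reads of them, with a log2 fold change of 0.45 (FDR 0.250, and 0.00357 with the block). Of 5 tested receptor genes, 2 rose. BMPR2, the main type II BMP receptor, went from 48.0 ± 2.70 to 136 ± 16.5 CPM (SD, n = 3), 2.83-fold (FDR 4.41e-05). ACVR1, a type I receptor that takes part in hepcidin control, rose 1.90-fold (FDR 0.000582). BMPR1A, another type I receptor, had a log2 fold change of 0.24 (FDR 0.330, and 0.0128 with the block). Both falls on the list were among the co-receptors. Of 4 tested, RGMB, a BMP co-receptor of the repulsive guidance family, fell to 0.587 of vehicle (FDR 0.00146), and TGFBR3, which presents TGFβ and BMP ligands to receptors, fell to 0.674 of vehicle (FDR 0.0392). HFE2, which encodes hemojuvelin, the co-receptor of the hepcidin pathway, had only 2 to 9 reads per library.

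**Figure D3:**
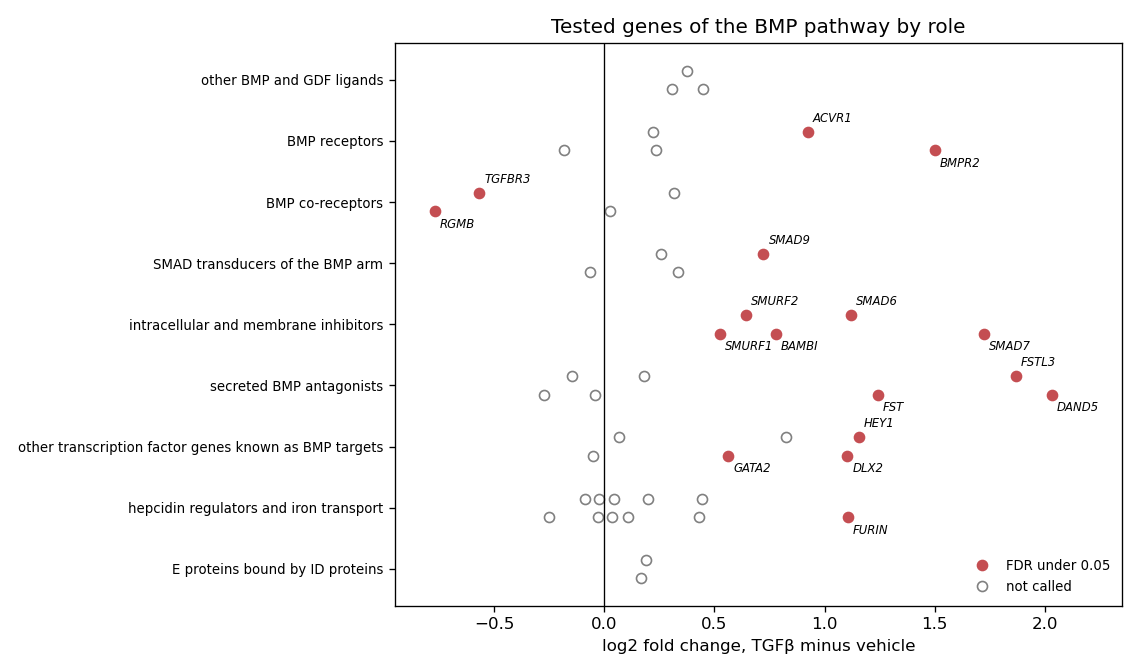
Log2 fold change, TGFβ minus vehicle, of the 47 tested genes of the BMP pathway list, by role. Each point is 1 gene, filled and named where the FDR was under 0.05 in edgeR's quasi-likelihood test. All 5 intracellular and membrane inhibitors are filled and above 0, and the 2 filled points below 0 are the co-receptors RGMB and TGFBR3.

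Of the 4 signal transducers, SMAD9 rose 1.65-fold (FDR 0.0101). SMAD1 had a log2 fold change of -0.064 (FDR 0.865). SMAD5, the most abundant, had a log2 fold change of 0.33 (FDR 0.0571, and 0.000768 with the block), and SMAD4 had one of 0.26 (FDR 0.178, and 0.00461 with the block). All 5 intracellular and membrane inhibitors rose. The inhibitory SMADs rose most, SMAD7 by 3.30-fold (FDR 3.73e-05) and SMAD6, which acts mainly on BMP signals, by 2.17-fold (FDR 0.00750). The pseudoreceptor BAMBI rose 1.71-fold, and the ubiquitin ligases SMURF2 and SMURF1 rose 1.56- and 1.44-fold.

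Of 7 tested secreted antagonists, 3 rose: FSTL3 by 3.65-fold and FST by 2.37-fold, both of the follistatin family that binds activins and some BMPs, and DAND5 by 4.08-fold. DAND5 had only 8 to 15 reads with vehicle and 47 to 62 with TGFβ. NOG, the gene of the BMP antagonist noggin, had 0 reads in every library. Of 6 other transcription factor genes known as BMP targets, HEY1 rose 2.23-fold (FDR 0.0337), DLX2 2.15-fold (FDR 0.0245) and GATA2 1.48-fold (FDR 0.00862). TBX3, the one with most reads, had a log2 fold change of 0.067 (FDR 0.800) and MSX1 of -0.052 (FDR 0.906).

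Among 11 tested regulators of hepcidin and iron transport, FURIN, the convertase that cuts prohepcidin and BMP precursors, was the 1 gene called, and rose 2.15-fold (FDR 0.000692). With the block 3 more were called higher: TMPRSS6, the protease that cuts hemojuvelin (log2 fold change 0.45, FDR 0.00707 with the block), CEBPA, a factor that acts on the HAMP promoter (0.43, FDR 0.0105 with the block), and the transferrin receptor gene TFRC (0.20, FDR 0.0238 with the block). TF, which encodes transferrin and had the most reads of this role, had a log2 fold change of 0.046 (FDR 0.919). The E protein genes TCF3 and TCF12, whose products ID proteins bind, had log2 fold changes of 0.19 (FDR 0.631) and 0.17 (FDR 0.584).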

How the data were processed

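HepG2 RNA was sequenced in paired reads from 3 vehicle and 3 TGFβ cultures, grouped by the labels. After alignment to hg19 the authors deposited a raw, unnormalized count and an RPKM value for every gene of each culture, in 1 table. The submitters' processing notes name TopHat2 2.0.6, HTSeq and bcl2fastq, and the study's methods name MAPRseq. Which annotation release and strand setting served for counting is not given in the sources used. The library kit does not mark strand, so reads in bases shared by overlapping genes cannot be assigned by strand. Whether counting dropped such reads or credited them to a gene is not given either. The table holds no columns of comparisons, and 0 of its per-sample columns were left unused.

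Deposited counts were tested with edgeR 4.0.16 (limma 3.58.1, R 4.3.3): TMM scaling, the filterByExpr filter, and an unblocked quasi-likelihood fit with robust dispersion, adjusted by Benjamini-Hochberg over 22747 genes and called at an FDR under 0.05. Standard errors were derived from the F statistics. Deposited RPKM values were used only to order levels and for marker sums. Figures were drawn with matplotlib 3.10.9. Deviations from group means correlated, across genes, at 0.366, 0.227 and 0.316 for same-numbered cultures and at most 0.0101 for others. Cultures with the same number were therefore paired for the within-pair ratios and for the fit with the block. The main fit did not use this pairing, nor did its standard errors, intervals and FDR values. Replicates differed by far more than counting noise. The steps were also tested on simulated counts, with less spread between cultures than HAMP or ATOH8 showed, and without pairing. No gene as low as BMP6 was given a change there, so the simulation does not bear on the calls of these genes.

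Members, lists and tests were chosen with earlier results of these data known. Named are all members, genes of the pathway list called with or without the block, the gene with most reads in each role, known TGFβ targets (1 of which is not reported here), markers, overlapping genes, and for called members and ID1 the 3 genes most alike over the 6 libraries. Alternatives were 2 other scalings (total count and DESeq2's size factors), 2 other filters (none, or 10 reads in every library), 3 other tests (limma-voom, DESeq2 1.42.0 and edgeR's exact test), a replicate block, fits without each culture in turn and, added later, a fit without both cultures 2.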

Additional observations from a re-analysis of the deposited data

How the results depend on the processing

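Up to 9 alternatives gave a value for each result, beside leaving out each culture in turn. HAMP, ATOH8, BMP6 and ID4 were higher and BMP4 was lower in all of them. The count of genes called, 937, became 1420 with DESeq2, 2690 with the replicate block and 276 without both cultures 2. With no filter 1 member was called lower, since BMP4 (log2 fold change -0.30, FDR 0.0475) was called. ID4 (1.15, FDR 0.0161) was called as well, while HAMP (1.61, FDR 0.256) and ATOH8 (1.77, FDR 0.192) were not. The cause was not tested. ID4 was also called by DESeq2 (1.17, FDR 0.0116), by edgeR's exact test (1.17, FDR 0.0189) and with the replicate block (1.11), which also called BMP4 (-0.28), 1 member lower. With limma-voom ATOH8 (1.77, FDR 0.0517) was not called, and 1 pathway gene was called lower. Without both cultures 2, an alternative chosen after seeing the data, 1 member was called higher and 1 pathway gene lower, BMP6 (1.86) and ATOH8 (2.21) were not called, and ID3 turned to 0.13 (FDR 1). These fits had fewer samples. The block changed no other call of a member.

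With 1 culture left out, 485 to 998 genes were called. Between 0 and 3 members were called higher: 0 without vehicle culture 1, 2 or 3, 1 without TGFβ culture 1 or 2, and 3 without TGFβ culture 3. Called members lower stayed at 0. Between 10 and 16 pathway genes were called higher and 1 to 2 lower, with 1 lower without vehicle culture 2 or 3 or TGFβ culture 1 or 2. Log2 fold changes ranged from -0.029 (without vehicle culture 1) to 0.52 for ID1, from 1.64 to 2.05 for BMP6, from 1.41 to 1.91 for HAMP and from 1.28 to 2.04 for ATOH8. BMP6 could not be tested with at least 10 reads in every library, and BMP2 could be tested only with no filter (log2 fold change -0.15, FDR 0.992). The scalings left the median log2 fold change of all genes between -0.047 and -0.0054. Depth limits BMP2 and BMP6 most.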

Other observations

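The genes whose levels followed each called gene most closely were found among tested genes with at least 100 reads in every library, by Pearson's r of log2 CPM over the 6 libraries. The libraries of each group share a treatment, so these values describe and test nothing. HAMP was closest to ZNF623 (0.994), FUT6 (0.989) and ELOVL5 (0.970), whose own log2 fold changes were only 0.12, 0.13 and 0.070. ATOH8 was closest to TMEM57 (0.991), the transferrin receptor gene TFRC (0.985) and WWC1 (0.983). BMP6 was closest to TPST1 (0.991), CCL15 (0.987) and ZNF641 (0.986). Of the genes named here for HAMP, ATOH8 and BMP6, only TPST1 was itself called in the main fit (log2 fold change 0.60, FDR 0.0128). ID1, which was not called, was closest to SPTY2D1-AS1 (0.982), SPATA7 (0.972) and BAZ1B (0.971).

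Within-pair ratios of called genes of the pathway list differed in where pair 2 stood. SMAD6 had log2 ratios of 1.61, 0.71 and 0.96 in pairs 1, 2 and 3, SMAD9 of 1.03, 0.38 and 0.73, and BAMBI of 0.93, 0.49 and 0.87, with pair 2 smallest in each. FSTL3 had 1.61, 2.34 and 1.62, FURIN 0.89, 1.40 and 1.02, and BMPR2 1.52, 1.63 and 1.33, with pair 2 largest in each. Pair 2 was also smallest for SMAD7, GATA2 and DAND5, and largest for SMURF1, SMURF2 and DLX2. It was in the middle for ACVR1, FST, HEY1, RGMB and TGFBR3. This grouping was made after the values were seen, and the difference between these genes was not tested. Over the 47 tested genes of the list, pair 2 had the smallest ratio for 15 (31.9%), near the 28.01% of all genes with a ratio in every pair.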
